A study of Mus musculus with 16 samples.

Results

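Cells washed from the peritoneal cavity of 3 mice were compared with macrophages grown from the bone marrow of the same numbered mice. The comparison takes the 3 peritoneal lavage libraries (PLF, mice 1, 2 and 4) and the 3 libraries of bone marrow derived macrophages (BMDM, mice 1, 2 and 4), chosen by their labels, which are 6 of the 16 libraries of the series. All mice were C57BL/6 and labelled wild type, and no treatment is given. The study set macrophages of the lung, in lavage and in long-term culture, beside those of other origins, and its lung libraries enter here as a second pair of lavage cells and cultured cells. Those are bronchoalveolar lavage cells (BALF) and ex vivo cultured alveolar macrophages (mexAM), 3 libraries each, from mice 1, 2 and 4. Lavage cells are labelled as such with no sort, so they hold every cell type of the wash. The labels state no age or sex, and no culture time or growth factor for the bone marrow cells. Messenger RNA was read as tags from the 3' end of transcripts, so a value is a gene's tags per 1000000 tags of the library (CPM, scaled by the trimmed mean of M values), and values of different genes are not compared with each other.

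Large peritoneal macrophages are the main resident macrophages of the cavity. They carry the transcription factor GATA6, which retinoic acid from the surrounding tissue is known to induce, and they are known for clearing dying cells, for coagulation factors on their surface and for gathering on injured mesothelium. Bone marrow derived macrophages arise in a dish from progenitors driven by colony stimulating factor 1 and resemble macrophages that come from blood monocytes. A peritoneal wash also brings B-1 and B-2 lymphocytes, T cells, mast cells, eosinophils and dendritic cells.

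The lavage libraries held 1540840, 1121293 and 1622236 tags assigned to genes and the BMDM libraries 2068473, 1458341 and 1631685. Rank correlations over all tested genes were 0.930 to 0.972 among lavage libraries, 0.958 to 0.978 among BMDM libraries and 0.764 to 0.779 between the groups. One lavage library, that of mouse 1, stood apart: Gm42418, a predicted gene that overlaps a ribosomal RNA repeat, was at 135532 CPM there against 37647 and 36380 CPM in the other lavage libraries, and BMDM libraries ranged from 54317 to 119129 CPM. The BMDM library of mouse 4 stood apart in myeloid and matrix genes. Each of the 6 libraries was left out in turn, and a count of list members that moved by over 1.5 times is given with its other values. Of 10011 genes tested with edgeR's quasi-likelihood test, 3652 (36.5%) differed at a Benjamini-Hochberg adjusted p of 0.05. Of these, 1806 were higher in lavage cells (18.0% of tested genes) and 1846 were lower (18.4%), and 2597 differed at least 2-fold (25.9%). The median log2 fold change of all tested genes was -0.01. Without the lavage library of mouse 1, 3627 genes were called, among them 3116 of the 3652, and no shared call changed sign. Throughout, a log2 fold change is lavage cells minus BMDM with its standard error, and "called" means past that adjusted p. Counts of list members called are to be read beside the shares of all genes, 18.0% higher and 18.4% lower. Both groups hold RNA of whole cell mixtures, so fewer cells of a type and less RNA per cell cannot be told apart.

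Genes of large peritoneal macrophages were higher in the lavage cells. Of 37 listed members 34 had enough tags to be tested, 28 were called higher and 3 lower, against 18.0% and 18.4% of all genes, with a median log2 fold change of 5.55 (5.05 with genes of 3 or fewer BMDM counts set at their bound). A gene that passed the filter on low counts only through the lavage cells had to differ, so these counts describe the list. Gata6, which encodes the lineage-defining factor (chr18:11052064-11085635, plus strand, protein coding, GRCm38), was at 45.5, 56.8 and 50.6 CPM in lavage cells of mice 1, 2 and 4 and had no tag in any BMDM library. Every lavage library was thus above every BMDM library, by at least 92.8-fold against a floor of 3 counts over the BMDM group (adjusted p = 5.48e-07). Timd4, the phosphatidylserine receptor TIM4 that binds dying cells (chr11:46810800-46844332, plus strand), was at 111, 120.1 and 182 CPM and likewise had no BMDM tag, at least 259-fold higher. Vsig4, a complement receptor of resident macrophages, was at 158, 73.2 and 154 CPM and at 0 in all BMDM libraries, at least 244-fold higher.

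Prg4, proteoglycan 4, the lubricant also called lubricin (chr1:150449412-150466165, minus strand), was at 4740.4, 3854 and 4082 CPM in lavage cells and 2.21, 4.56 and 2.34 CPM in BMDM, a log2 fold change of 10.46 ± 0.46 (adjusted p = 7.7e-11). F5, coagulation factor V, was at 1543, 1204 and 1230.3 against 3.97, 0.652 and 5.27 CPM (8.57 ± 0.35). Both genes were tightly grouped among the 3 lavage libraries and close to 0 in the others. Thbs1, the matrix glycoprotein thrombospondin 1, was at 4623, 4579 and 5359 against 208, 170.2 and 174 CPM (4.72 ± 0.28). Fn1, fibronectin, was at 7916, 8273 and 9561 against 26.5, 30.6 and 63.8 CPM (7.74 ± 0.36). It is not in this list but in the list of bone marrow derived macrophage and monocyte genes. Ltbp1, which tethers latent TGF beta to matrix, was at 318, 326 and 369 against 0.441, 0.652 and 3.51 CPM (7.78 ± 0.40). Alox15, the 12/15-lipoxygenase, was at 645, 839 and 871 CPM and 0.882, 1.3 and 0.585 CPM (9.64 ± 0.48, adjusted p = 2.46e-09). Cxcl13, the chemokine that draws B cells, was at 86.3, 104 and 312 CPM in lavage cells, highest in mouse 4, with 1 tag in all BMDM libraries, a ratio of 978 (95% exact interval 175 to 38689, counting error only).

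Adhesion receptors of the list followed. Selp, P-selectin, was at 319.6, 202 and 319 CPM in lavage cells with 1 tag in BMDM (ratio 1584, 95% exact interval 284 to 62599.7). Icam2, a ligand of the leukocyte integrin LFA-1 and a usual sorting marker of large peritoneal macrophages, was at 87, 107 and 102 against 3.97, 5.22 and 11.1 CPM (3.88 ± 0.31, adjusted p = 5.77e-08). The groups did not overlap in either gene, which for Selp was a condition of its naming, while BMDM were not at 0 for Icam2. The 3 members called lower were Cd93, a receptor linked to the uptake of dying cells, Fam213b, a prostamide and prostaglandin F synthase, and Adgre1, the gene of the F4/80 antigen. Cd93 was at 222 ± 59.7 CPM (SD, n = 3) in lavage cells and 1045, 995 and 830.4 CPM in BMDM (-2.10 ± 0.22) and Adgre1 at 705, 598 and 687 against 1395, 1264 and 1254 CPM (-0.98 ± 0.19, adjusted p = 0.000498). F4/80 staining is commonly used to mark large peritoneal macrophages, yet its transcript was higher in all 3 BMDM libraries. Itga6, Hgf and Laptm5 were not called (adjusted p from 0.559 to 0.922), and Rarb, Gbp2b and Slc9a3r2 had too few tags to test.

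**Figure D1:**
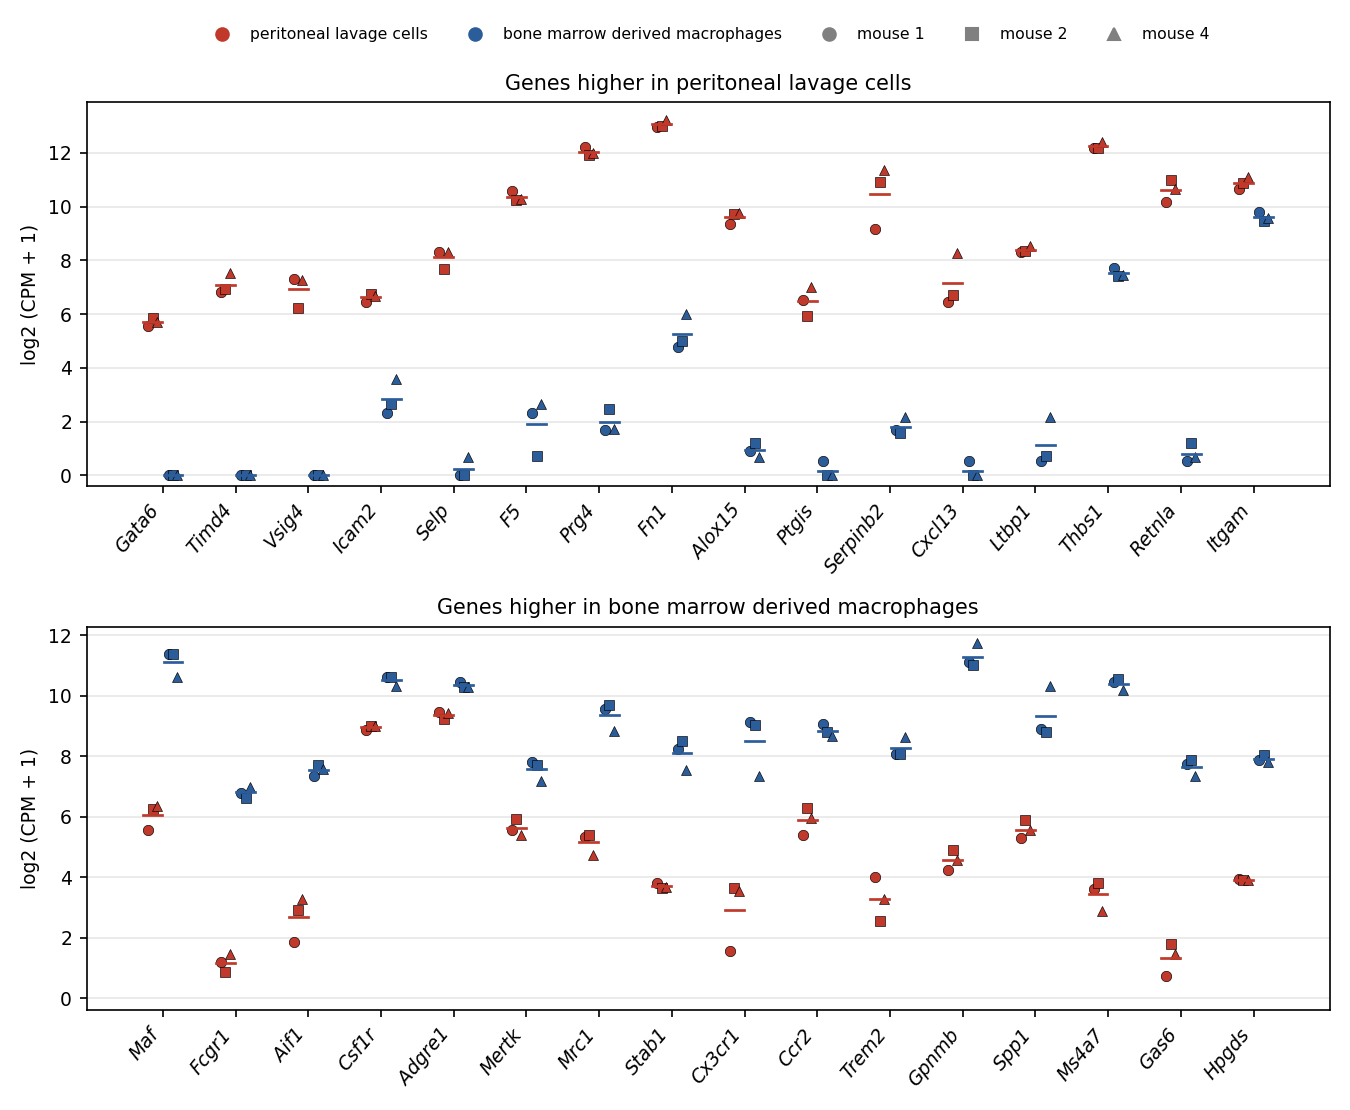
Level of 32 genes per library as log2 (CPM + 1), with lavage cells in red, BMDM in blue, a symbol per mouse and a line at each group's mean. In every gene shown the 3 lavage libraries lie on one side of the 3 BMDM libraries, and Gata6, Timd4 and Vsig4 are at 0 in BMDM. Groups without overlap were a condition for naming the genes of largest change.

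GATA factors bind a short DNA motif, so promoter windows of the list (from 250 bases before to 50 after the start of the gene, RefSeq, GRCm38.p6) were searched for AGATAA or its reverse complement TTATCT on either strand. Windows were found for 25 of the 37 members (31 windows), and 5 windows (16.1%) held a match, against 3672 of 32851 windows of all genes (11.2%). The letters were thus found in a minority of the list. Of the 5 genes, 4 (Serpinb2, Saa3, Fzd1 and Tgfb2) were called higher, and Slc9a3r2 had too few tags to test. Of all tested list members, 28 of 34 were called higher. The windows of Serpinb2 (chr1:107511260-107511559, plus strand) and Saa3 (chr7:46715627-46715926, minus strand) are shown 5′ to 3′, as members with high lavage levels, with the match in capitals.
Serpinb2: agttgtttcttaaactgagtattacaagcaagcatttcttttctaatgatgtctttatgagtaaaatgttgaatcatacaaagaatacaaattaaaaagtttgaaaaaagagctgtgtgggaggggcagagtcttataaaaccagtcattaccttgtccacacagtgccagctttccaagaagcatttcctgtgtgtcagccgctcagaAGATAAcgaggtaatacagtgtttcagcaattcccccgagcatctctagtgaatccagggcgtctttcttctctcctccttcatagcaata
Saa3: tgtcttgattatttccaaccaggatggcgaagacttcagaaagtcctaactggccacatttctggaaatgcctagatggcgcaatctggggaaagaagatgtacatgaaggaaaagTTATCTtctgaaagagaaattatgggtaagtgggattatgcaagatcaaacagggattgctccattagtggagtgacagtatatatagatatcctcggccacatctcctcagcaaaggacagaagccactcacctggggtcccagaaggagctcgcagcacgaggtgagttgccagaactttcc
The match starts 41 bases before the gene start in Serpinb2 and 134 bases before it in Saa3, and it is a match of letters, not a measured binding site. Serpinb2, plasminogen activator inhibitor 2, was at 575, 1929 and 2622 CPM in lavage cells and 2.21, 1.96 and 3.51 CPM in BMDM (9.35 ± 0.59, adjusted p = 2.25e-08). Saa3, an acute phase apolipoprotein, was at 1601, 6793 and 4865 against 36.2, 34.6 and 25.2 CPM (7.10 ± 0.48, adjusted p = 3.37e-08). In both genes mouse 1 was the lowest lavage library and still far above every BMDM library.

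Genes shared by macrophages leaned towards BMDM. Of 18 pan-macrophage genes, 13 were called lower in lavage cells and 3 higher (median log2 fold change -1.35). Their summed level was 23844, 21989 and 21614 CPM in lavage cells and 30814, 29844 and 25879.6 CPM in BMDM. Csf1r, the receptor of colony stimulating factor 1, was at 469.9, 517 and 509.5 against 1579, 1560.1 and 1266 CPM (-1.56 ± 0.27, adjusted p = 0.00023). Mertk, a receptor tyrosine kinase of efferocytosis, was at 46.8, 59.2 and 41.2 against 224, 211 and 145 CPM (-1.98 ± 0.30). Fcgr1, the high-affinity receptor of immunoglobulin G known as CD64 (chr3:96282909-96293969, minus strand), was at 1.32, 0.823 and 1.77 CPM in lavage cells and 110.3, 97.8 and 126 CPM in BMDM (-6.29 ± 0.39, adjusted p = 2.33e-09). Its transcript was thus close to 0 in every lavage library. Maf, a transcription factor of mature macrophages (chr8:115682942-115707794, minus strand), was at 46.8, 74.9 and 81.2 against 2674, 2659 and 1586 CPM (-5.09 ± 0.30, adjusted p = 1.52e-09). In the other direction Itgam, the CD11b integrin chain, was at 1603, 1875 and 2200.5 CPM in lavage cells and 887, 709 and 761 CPM in BMDM (1.27 ± 0.20). C1qa, which is not in the pan-macrophage list, was not called (-0.08 ± 0.23). Of the other C1q chains, C1qb was called lower. C1qc was also called lower, at 655, 662 and 753 against 1286, 1273 and 1167 CPM (-0.85 ± 0.24, adjusted p = 0.00961). Lyz2 was not called, with a log2 fold change of -0.06 ± 0.26. Lyz1, called higher at 4.70 ± 0.27, is nearly identical to Lyz2, and tags may be split between them.

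Genes of bone marrow derived and monocyte-derived cells were also mostly higher in BMDM: 18 of 31 tested were called lower in lavage cells and 6 higher (median -1.56). Gpnmb, a lysosomal glycoprotein of lipid-laden macrophages, was at 17.8, 28.8 and 22.9 against 2206, 2089 and 3407 CPM (-6.80 ± 0.36, adjusted p = 4.74e-10). Ms4a7, a membrane protein of monocyte-derived macrophages, was at 11.2, 13.2 and 6.47 against 1395, 1509.9 and 1175 CPM (-7.07 ± 0.31). Trem2, a lipid receptor, was at 15.2, 4.94 and 8.83 against 272, 267 and 398 CPM (-4.98 ± 0.40). In these 3 genes the lowest BMDM library was many times the highest lavage library. Spp1, osteopontin, was at 38.2, 58.4 and 45.9 against 476, 448 and 1275 CPM (-3.95 ± 0.38), with mouse 4 highest among BMDM. Mmp12, macrophage elastase, was at 44.2, 43.6 and 47.1 against 65.7, 69.1 and 729 CPM (-2.67 ± 0.77, adjusted p = 0.0171). Without the BMDM library of mouse 4 the log2 fold change was -0.59 and the call was lost (adjusted p = 0.0831). It was also lost without any 1 of the 3 lavage libraries (0.0572 to 0.0683) and with the mouse as a replicate block (0.0545). Apoe was not called (-0.46 ± 0.26, adjusted p = 0.181). Among members called higher in lavage cells, Arg1, arginase 1, was at 402, 318 and 197 CPM with 1 tag in all BMDM libraries (ratio 1653, 95% exact interval 296 to 65349). Fn1, given above beside the large peritoneal macrophage genes, was another of them.

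Small peritoneal macrophages, the monocyte-derived population of the cavity, gave a split picture: 6 of 15 tested genes were called higher in lavage cells and 6 lower (median -0.89; 0.55 without the BMDM library of mouse 4). Retnla, a resistin-like protein of alternatively activated macrophages, was at 1162, 2051 and 1598 CPM in lavage cells and 0.441, 1.3 and 0.585 CPM in BMDM (10.96 ± 0.47, adjusted p = 4.42e-11). Irf4, a transcription factor of such cells and of B cells, was at 38.9, 67.5 and 91.2 against 5.29, 5.22 and 3.51 CPM (3.79 ± 0.39). Ccr2, the monocyte chemokine receptor, was at 41.5, 78.2 and 61.2 CPM in lavage cells and higher, at 529, 443 and 405 CPM, in BMDM (-2.93 ± 0.37). Cx3cr1, the fractalkine receptor, was at 1.98, 11.5 and 10.6 against 554, 522 and 162 CPM (-5.69 ± 0.56), and Mrc1, the mannose receptor, at 38.9, 41.1 and 25.9 against 752, 825 and 454 CPM (-4.27 ± 0.27). For all 3 receptors the lowest BMDM library exceeded the highest lavage library.

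Transcripts of other cell types marked the lavage wash. The lower group had 3 or fewer counts in 7 of 20 tested B cell genes and 5 of 13 B-1 genes. The same held for 9 of 16 T and natural killer cell genes and 9 of 15 mast cell genes. A gene that passed the filter on low counts only through the lavage cells had to differ, so these counts describe the lists. The summed level of the B cell list was 4369, 4886 and 4526 CPM in lavage cells and 292, 271 and 319.5 CPM in BMDM, with 18 of 20 tested members called higher and 1, the inhibitory receptor gene Cd72, lower. Ighm, the immunoglobulin M heavy chain, was at 1690.4, 1259 and 1203 against 120.4, 104 and 83.7 CPM (3.75 ± 0.33, adjusted p = 2.33e-07). Cd79a, a signalling chain of the B cell receptor, was at 10.5, 18.1 and 8.24 CPM and had no BMDM tag (at least 21.5-fold). Blk and Cr2 were also at 0 in BMDM. Ms4a1, the CD20 antigen, was at 269.5, 375 and 301 against 0, 0.652 and 2.34 CPM (8.31 ± 0.48). Of 13 tested genes of B-1 cells 10 were called higher, among them Zbtb32, a transcriptional repressor, and Il5ra, a receptor chain for interleukin 5, both at 0 in BMDM. The B-1 list summed to 619, 645 and 758 CPM in peritoneal lavage cells. It was higher in lung lavage cells (954, 1052 and 1093 CPM) and cultured alveolar macrophages (767, 945 and 900 CPM), so its members are not particular to B-1 cells. It also holds Nt5e, given below with the purine genes.

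All 15 tested of 17 mast cell genes were called higher, 9 of them with 3 or fewer BMDM counts. Their median log2 fold change was 7.95, or 5.09 with those 9 set at their bound. The list summed to 3860.0, 4533 and 4131 CPM in lavage cells and 201, 152 and 218 CPM in BMDM. Cpa3, the mast cell carboxypeptidase, was at 685, 723 and 771 against 1.76, 0 and 4.1 CPM (8.46 ± 0.45, adjusted p = 1.03e-09). Cma1, a chymase, was at 566, 542 and 415 CPM with 2 BMDM tags (ratio 1382, 95% exact interval 382 to 11421). Tpsb2, a tryptase, was at 500.2, 472 and 428 CPM (ratio 1279.7), but it is nearly identical to Tpsab1, so the division of tags between them is uncertain. Tph1, which makes serotonin in mast cells, was at 107, 74.1 and 70.6 CPM and at 0 in BMDM (at least 154-fold). The T and natural killer cell list summed to 746, 755 and 773 against 300.0, 326 and 549 CPM, with 13 of 16 tested members called higher and 1, the interleukin 7 receptor gene Il7r, called lower. The Il7r call was lost without the lavage library of mouse 1 (adjusted p = 0.0848) or 4 (0.0573) and without the BMDM library of mouse 4 (0.251). Tcf7, a transcription factor of T cells, was at 0 in BMDM.

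The BMDM libraries held neutrophil transcripts instead. That list summed to 3097, 2159.9 and 5781 CPM in BMDM and 111, 174 and 154 CPM in lavage cells, with 10 of 13 tested members called lower in lavage cells and 2 higher. S100a9, a calcium-binding protein of neutrophils and monocytes, was at 9.23, 27.2 and 12.4 against 1024, 774 and 2175 CPM (-6.38 ± 0.50), and Ngp, a neutrophil granule protein, at 3.95, 2.47 and 1.77 against 229, 141 and 453 CPM (-6.62 ± 0.51). Mouse 4 was the highest BMDM library in both. Collagen genes marked the same cultures: Col1a2 was at 66.2, 60.6 and 185 CPM in BMDM against 0, 1.65 and 0.588 CPM in lavage cells (3 lavage tags, ratio 149.9, 95% exact interval 51 to 729), and Col1a1 was at 0 in all lavage libraries. The mesothelial genes Msln, Upk3b and Wt1 were at 0 in all 6 libraries. Eosinophil genes split: of 6 tested 3 were called higher in lavage cells and 2 lower. Without any 1 lavage library or the BMDM library of mouse 4, 1 was called lower. The higher members included Alox15, given above as a large peritoneal macrophage gene. Epx, Prg2, Prg3 and Ear6 were at 0 in all lavage libraries, and Prg2, major basic protein, was at 36.2, 10.4 and 61.4 CPM in BMDM. The part of these cell types in the gene groups below was not tested.

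**Figure D2:**
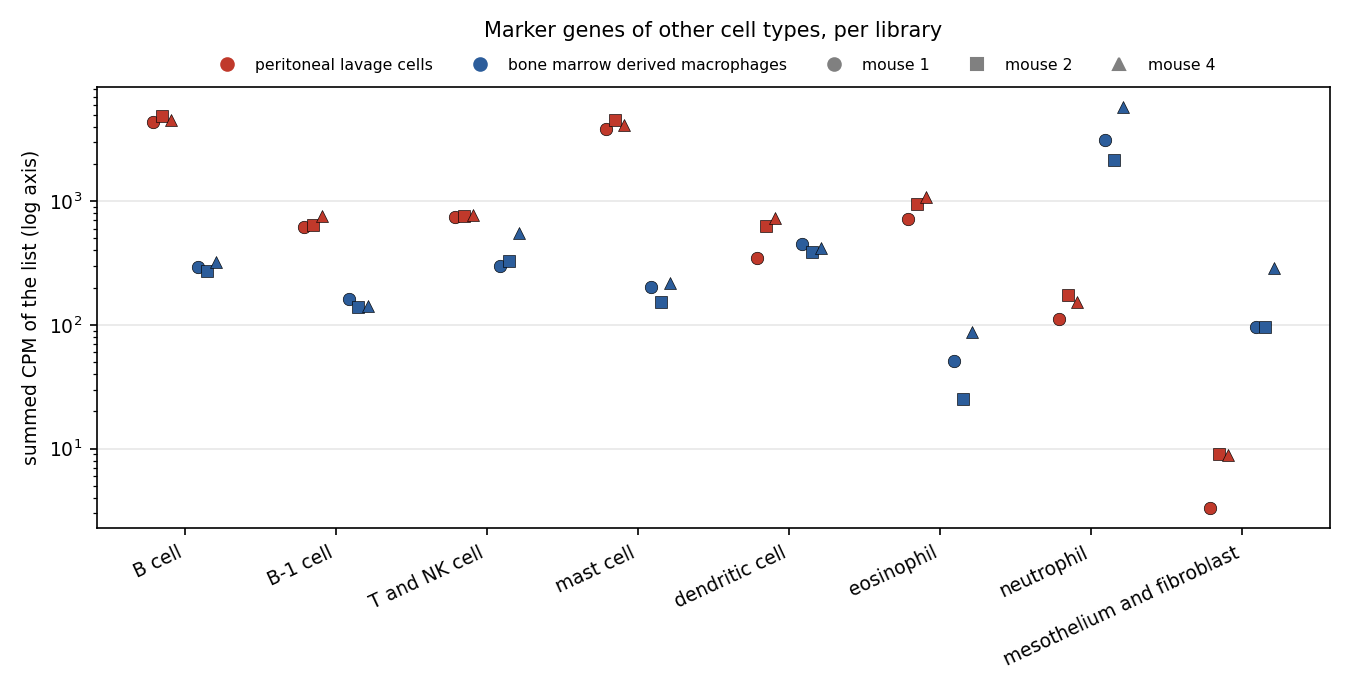
Summed CPM of 8 marker lists per library on a log axis, lavage cells in red and BMDM in blue, with a symbol per mouse. B, B-1, T and mast cell sums are higher in all 3 lavage libraries, and neutrophil and fibroblast sums are higher in all 3 BMDM libraries.

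Antigen presentation genes of MHC class II were higher in lavage cells, with 12 of 15 called higher and 1 lower (median 2.22). H2-Aa, a class II alpha chain, was at 1072, 2379.8 and 2221 against 269, 203 and 555 CPM (2.47 ± 0.34, adjusted p = 3.93e-05). Cd74, the invariant chain, was at 722, 727 and 644 against 94.8, 98.4 and 322 CPM (2.02 ± 0.39, adjusted p = 0.00082). H2-Ob, a class II regulator typical of B cells, was at 69.9, 85.6 and 71.8 against 1.32, 0 and 2.34 CPM (5.82 ± 0.45). The groups did not overlap in any of these genes, and the B cell sum was higher in the same 3 libraries. The dendritic cell list summed to 347, 629 and 735 CPM in lavage cells and 448, 389 and 419.6 CPM in BMDM, and the part of these cells was not tested. The member called lower was Ctss, the protease that trims the invariant chain, at 2002, 2397 and 2179 against 4497, 4141 and 5091 CPM (-1.06 ± 0.21). Of 7 tested dendritic cell genes 5 were called higher, among them Ccr7, the receptor that guides cells to lymph nodes, at 27, 36.2 and 55.3 against 1.32, 0.652 and 4.68 CPM (4.13 ± 0.51).

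Clotting and its control also differed. Of 20 tested coagulation, fibrinolysis and serpin genes 11 were called higher in lavage cells and 4 lower (median 1.93). F10, coagulation factor X, was at 158, 407 and 260.1 against 5.73, 4.56 and 12.9 CPM (5.14 ± 0.69, adjusted p = 8.86e-05). F3, tissue factor, which starts coagulation, was at 7.25, 54.3 and 79.4 CPM in lavage cells, lowest in mouse 1, with 3 tags in BMDM (ratio 87.8, 95% exact interval 29.7 to 429). F13a1, which cross-links fibrin, went the other way, at 146, 155 and 147 against 707, 689 and 304 CPM (-1.93 ± 0.29). Gas6, the bridging ligand of MERTK, was at 0.659, 2.47 and 1.77 against 211, 234 and 163 CPM (-6.93 ± 0.37, adjusted p = 5.39e-10). Factors V and X and Serpinb2 were therefore higher in every lavage library, and the fibrin cross-linker in every BMDM library. Plau, urokinase, was called lower at -1.60 ± 0.58 (adjusted p = 0.0436), with the mouse 4 library at 109 CPM among BMDM levels of 19.4, 24.1 and 109 CPM, and the call was lost without that library (0.475) and without any 1 of the lavage libraries (0.0697 to 0.132).

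Complement genes were found on both sides. Of 13 tested, 7 were called higher in lavage cells and 5 lower (median 0.79). C4b, complement component 4, was at 233, 159.6 and 198 CPM in lavage cells and 0 in BMDM (at least 366-fold), and tags may be shared with its near-identical neighbour C4a. Cfb, factor B of the alternative pathway, was at 63.3, 197 and 106 against 3.09, 3.26 and 4.1 CPM (5.10 ± 0.42), and Cd55, which dismantles convertases, at 58, 53.5 and 61.8 against 0.882, 0.652 and 1.76 CPM (5.63 ± 0.40). Receptors of the anaphylatoxins were lower in lavage cells: C3ar1 at 359, 253 and 417 against 1684, 1393 and 1748 CPM (-2.23 ± 0.32) and C5ar1 at 76.4, 176 and 189 against 298, 236 and 318 CPM (-0.95 ± 0.26, adjusted p = 0.00927). C3 itself was lower at -1.12 ± 0.20. In the eicosanoid list 9 of 21 were called higher and 5 lower (median 0.77). Ptgis, prostacyclin synthase, was at 90.3, 59.2 and 128 CPM with 1 BMDM tag (ratio 531, 95% exact interval 94.8 to 21013). Ptges, prostaglandin E synthase, was at 38.2, 166 and 155 against 0.882, 1.3 and 2.34 CPM (6.28 ± 0.67), and Ptgs2, the inducible cyclooxygenase, at 77.1, 204 and 364 against 6.18, 3.91 and 2.93 CPM (5.56 ± 0.53). Hpgds, which makes prostaglandin D2, was lower in every lavage library, at 14.5, 14 and 14.1 against 232, 263 and 221 CPM (-4.06 ± 0.27), as was Tbxas1, thromboxane synthase (-1.31 ± 0.19). Enzymes for prostacyclin and prostaglandin E were thus higher in lavage cells and those for prostaglandin D and thromboxane higher in BMDM.

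Of 26 tested scavenger, efferocytosis and lectin receptors 14 were called lower in lavage cells and 7 higher (median -1.33). Olr1, the oxidised low density lipoprotein receptor LOX-1, was at 848, 807 and 1218 against 7.5, 5.22 and 4.68 CPM (7.32 ± 0.35, adjusted p = 1.43e-10). Clec4e, the lectin Mincle, was at 496, 2139 and 2159 against 62.6, 40.4 and 53.3 CPM (4.93 ± 0.67), lowest in mouse 1 among lavage cells. Stab1, stabilin 1, was at 13.2, 11.5 and 11.8 against 299.5, 364 and 188 CPM (-4.53 ± 0.33). Olr1 and Stab1 thus marked the lavage and BMDM sides of the list, each with groups far apart. Of 21 tested Fc and Toll-like receptor genes 9 were called lower and 5 higher (median -0.67), against 18.4% and 18.0% of all genes. Without the lavage library of mouse 2 or any 1 BMDM library, 3 were called higher. Tlr2, which senses bacterial lipopeptides, was higher at 475, 652 and 704 against 189, 172 and 96.6 CPM (2.00 ± 0.40), and Tlr8, an endosomal RNA sensor, lower at 5.93, 2.47 and 0.588 against 28.7, 42.4 and 33.4 CPM (-3.52 ± 0.42).

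Purine genes were found on both sides. Of 13 tested genes 5 were called higher in lavage cells and 7 lower (median -1.74). Nt5e, the ectonucleotidase CD73 that makes adenosine, was at 235, 236 and 268 against 2.65, 1.3 and 4.68 CPM (6.37 ± 0.34, adjusted p = 4.74e-10). Cd38, an ectoenzyme that consumes NAD, was at 105, 349.7 and 319 CPM in lavage cells, lowest in mouse 1, with 2 BMDM tags (ratio 700.5, 95% exact interval 193 to 5791). Adora2a, an adenosine receptor, was at 10.5, 15.6 and 15.3 CPM with 1 BMDM tag (ratio 75.8, 95% exact interval 13.1 to 3043). Nucleotide receptors were on both sides. P2ry10, a receptor of the P2Y family, was higher at 104, 82.3 and 71.8 against 0.441, 0 and 4.68 CPM (5.64 ± 0.61). Lower in lavage cells were P2ry6 at 7.91, 3.29 and 10.6 against 149, 158 and 126 CPM (-4.25 ± 0.36), P2rx7 at 5.93, 20.6 and 20.0 against 105, 84.1 and 48 CPM (-2.36 ± 0.50), and P2ry13 at 0 in all lavage libraries against 26.5, 20.9 and 8.19 CPM. The groups did not overlap in Nt5e, Adora2a, P2ry10 or these 3 lower receptors.

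Regulators were mixed. Of 34 tested macrophage transcription factors 17 were called higher in lavage cells and 7 lower (median 0.67), with 4 lower without the lavage library of mouse 1 or of mouse 2. Cebpb, a CCAAT enhancer binding factor needed by peritoneal macrophages, was at 958, 1001 and 1154 against 226, 170.2 and 224 CPM (2.33 ± 0.21). Irf8, a myeloid lineage factor, was at 92.9, 176 and 193.6 against 393, 351 and 334 CPM (-1.22 ± 0.25), and Spi1, the master myeloid factor PU.1, was not called (-0.57 ± 0.27, adjusted p = 0.106). In the TGF beta and BMP pathway 6 of 21 were called higher and 3 lower (median 0.32), against 18.0% and 18.4% of all genes. Without the lavage library of mouse 1, 9 were called higher and 2 lower, and without the BMDM library of mouse 4, 8 and 2. The pathway's ligand Tgfb2 was at 26.4, 13.2 and 59.4 against 1.76, 4.56 and 5.27 CPM (3.16 ± 0.55), and the feedback inhibitor Smad7 at 167, 84.8 and 118 against 12.4, 13.7 and 18.1 CPM (3.07 ± 0.33). Among 9 tested retinoid genes 2 were called higher and 3 lower (median -1.0), against 18.0% and 18.4% of all genes. Without the BMDM library of mouse 4, 5 were called lower. Aldh1a2, which makes retinoic acid, was at 7.25, 13.2 and 12.4 CPM in lavage cells with 2 BMDM tags (ratio 29.8, 95% exact interval 7.82 to 253). Dhrs3, which reduces retinaldehyde, was at 42.8, 17.3 and 43 against 249, 222 and 278 CPM (-2.84 ± 0.29).

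Immediate early genes, which are switched on within minutes of a stimulus, were higher in lavage cells: 22 of 25 tested were called higher and 0 lower (median 2.13), with 1, Fos, called lower without the lavage library of mouse 4. Their sum was 5531, 8259 and 12321 CPM in lavage cells and 3275, 2983 and 2988 CPM in BMDM, lowest in mouse 1 and highest in mouse 4 among lavage cells. Nr4a1, an orphan nuclear receptor, was at 33.6, 92.2 and 129 against 8.82, 8.48 and 9.95 CPM (3.22 ± 0.54, adjusted p = 0.000318), and Egr2 at 103, 235 and 234 against 10.6, 5.87 and 27.5 CPM (3.70 ± 0.46). Fos was not called, at 33, 53.5 and 274 against 170.3, 160.4 and 121 CPM (-0.31 ± 0.61). Inflammatory cytokines and chemokines were mostly on the same side, with 18 of 26 called higher and 1 lower (median 2.22). Il1b, interleukin 1 beta, was at 76.4, 569 and 411 against 52.5, 55.4 and 29.8 CPM (2.93 ± 0.70, adjusted p = 0.00598, or 0.0552 with the mouse as a replicate block in these 6 libraries alone). Ccl24, an eosinophil chemoattractant, was at 419.8, 753 and 533 against 1.76, 2.61 and 2.34 CPM (7.97 ± 0.34), and Il6 at 25.7, 83.9 and 159 CPM with 1 BMDM tag (ratio 511, 95% exact interval 91.2 to 20228). Mouse 1 was the lowest lavage library in Il1b, Il6 and Ccl24.

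The lavage library of mouse 1 was the lowest of the 3 for many of these genes and the highest for others. Il1b there, at 76.4 CPM, lay near the BMDM range, while mice 2 and 4 were at 569 and 411 CPM. Without it the log2 fold change of Il1b was 3.41 (adjusted p = 0.000778). Il1a was at 23.1, 253 and 251 CPM in mice 1, 2 and 4. Ednrb, the endothelin B receptor and a large peritoneal macrophage gene, was opposite, at 1036, 146 and 268 CPM against 22.9, 20.2 and 14 CPM in BMDM. Heat shock chaperones were called higher for 9 of 13 and lower for 0 (median 0.80), and 5 were called higher without the lavage library of mouse 1, and 5 without the BMDM library of mouse 1 or of mouse 2. Hspa1b was at 163, 30.4 and 46.5 against 3.97, 4.56 and 2.93 CPM (4.37 ± 0.63, 3.33 without mouse 1), with tags possibly shared with its near-identical copy Hspa1a. The call of Hsph1, another chaperone, (adjusted p = 0.0232) was lost without the lavage library of mouse 1 (0.232) and without the BMDM library of mouse 1 (0.0630) or 2 (0.0868). Interferon stimulated genes were lower in lavage cells for 11 of 30 and higher for 1 (median -0.86), with a sum of 793, 2421 and 2512 CPM against 3000.0, 2734 and 2095 CPM. Ifit3, an antiviral effector, was at 0.659, 11.5 and 15.3 against 78.5, 60.0 and 43.9 CPM (-2.72 ± 0.52; -2.16 without mouse 1, adjusted p = 0.000252). Without mouse 1, 3 of that list were called higher and 10 lower (0 higher without the lavage library of mouse 2), and the sums of the lavage libraries of mice 2 and 4 lay within the BMDM range. The part of ribosomal RNA or RNA quality in these differences was not tested.

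**Figure D3:**
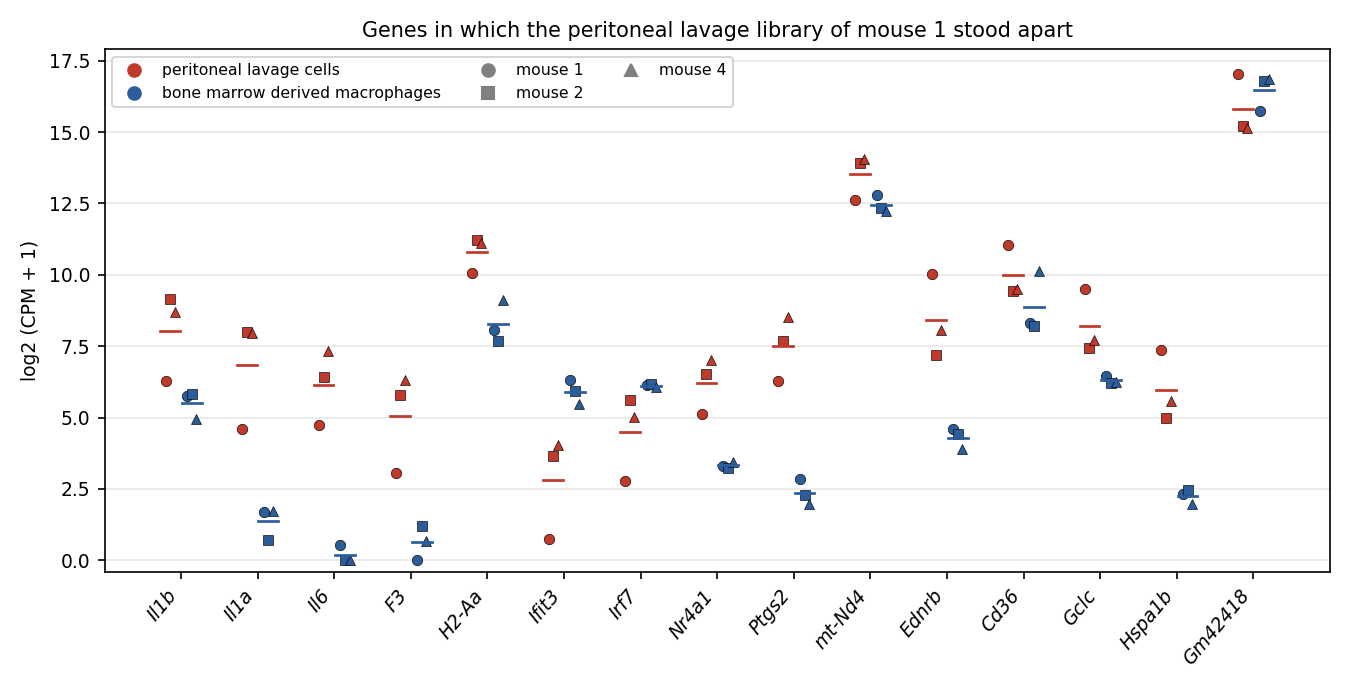
Log2 (CPM + 1) of 15 genes per library, chosen after their values were seen, with lavage cells in red, BMDM in blue, a symbol per mouse and a line at each group's mean. The circle of the lavage library of mouse 1 is below the other lavage libraries from Il1b to mt-Nd4 and above them from Ednrb to Gm42418.

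Lysosomal genes were lower in lavage cells, with 27 of 43 called lower and 4 higher (median -0.91). The list summed to 13976, 13287 and 14025 CPM in lavage cells and 35885, 33126 and 39108 CPM in BMDM, and the groups did not overlap. Ctsb, the protease cathepsin B, was at 1677, 1216 and 1407 against 6225, 5701 and 7790.0 CPM (-2.20 ± 0.23, adjusted p = 1.15e-06). Psap, the precursor of lipid-degrading saposins, was at 397, 681 and 706 against 4019, 3082 and 2133 CPM (-2.37 ± 0.28). Tfeb, a transcription factor that drives lysosomal genes, was at 5.93, 3.29 and 8.24 against 20.3, 20.2 and 25.2 CPM (-1.85 ± 0.31, adjusted p = 0.000176). Acp5, a tartrate-resistant acid phosphatase, went the other way, at 13.2, 32.9 and 25.3 against 1.32, 4.56 and 12.9 CPM (1.97 ± 0.53). The pan-macrophage sum was also lower in lavage cells, by less than the lysosomal sum. By median log2 fold change the order was the reverse, at -1.35 for pan-macrophage genes and -0.91 for lysosomal genes. The part of cell mixture was not tested.

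Factors of the TFEB family bind the CLEAR element, so the list's promoter windows were searched for CACGTGAC or its reverse complement GTCACGTG on either strand. Windows were found for 33 of the 43 members (38 windows), and 9 (23.7%) held a match, against 738 of 32851 windows of all genes (2.25%). The 9 genes were Atp6v0d1, Ctsa, Ctsd, Gla, Glb1, Lamp1, Lgmn, Mcoln1 and Naglu, and 5 of them (Ctsd, Lgmn, Lamp1, Ctsa and Naglu) were called lower while Glb1 was called higher. Of all tested list members, 27 of 43 were called lower and 4 higher. The windows of Ctsd (chr7:142387778-142388077, minus strand), which has 2 matches, and Lgmn (chr12:102439043-102439342, minus strand) are shown 5′ to 3′ as protease genes called lower, with matches in capitals (RefSeq, GRCm38.p6).
Ctsd: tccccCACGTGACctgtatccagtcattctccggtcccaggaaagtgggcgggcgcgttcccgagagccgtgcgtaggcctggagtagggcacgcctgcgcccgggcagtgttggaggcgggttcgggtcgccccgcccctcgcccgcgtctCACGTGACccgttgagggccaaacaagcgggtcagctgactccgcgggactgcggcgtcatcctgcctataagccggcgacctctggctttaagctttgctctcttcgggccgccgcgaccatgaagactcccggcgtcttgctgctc
Lgmn: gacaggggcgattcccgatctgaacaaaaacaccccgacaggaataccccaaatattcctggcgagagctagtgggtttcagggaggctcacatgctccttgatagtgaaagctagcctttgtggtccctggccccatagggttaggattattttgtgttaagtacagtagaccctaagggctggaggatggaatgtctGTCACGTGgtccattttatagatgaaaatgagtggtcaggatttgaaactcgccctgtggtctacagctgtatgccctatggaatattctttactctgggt
The matches start 245 and 98 bases before the gene start in Ctsd and 51 bases before it in Lgmn. Ctsd, the protease cathepsin D, was at 1367, 599 and 748 against 2228, 2512 and 3475 CPM (-1.60 ± 0.31, adjusted p = 0.000517). Lgmn, the asparagine-specific protease legumain, was at 255, 193 and 264 against 683, 653 and 736 CPM (-1.54 ± 0.17, adjusted p = 2.77e-06). Every lavage library was below every BMDM library in both, and the matches are letters in a window, not measured binding.

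Iron and oxidative stress genes stood out for single members rather than as a list, with 10 of 28 called higher and 7 lower (median 0.27). Slc7a11, the cystine transporter, was at 1349.7, 1340.5 and 1290.3 against 25.6, 28 and 27.5 CPM (5.62 ± 0.31, adjusted p = 7.96e-10). Hmox1, haem oxygenase 1, was at 3378, 1532 and 1593 against 262, 293 and 506 CPM (2.62 ± 0.34), highest in mouse 1. Slc40a1, the iron exporter ferroportin, was lower, at 15.2, 1.65 and 3.53 against 248, 227 and 147 CPM (-4.89 ± 0.49). Srxn1 and Txnrd1, antioxidant targets of the factor NRF2, were called higher, with log2 fold changes of 3.34 ± 0.40 and 2.33 ± 0.30, and catalase, Cat, was called lower (-1.68 ± 0.26).

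Of 16 tested glycolysis genes 7 were called lower and 2 higher (median -0.60), against 18.4% and 18.0% of all genes. The same shares stand beside the oxidative phosphorylation, cholesterol and fatty acid lists that follow. Between 2 and 4 were called lower without the lavage library of mouse 2 or 4 or the BMDM library of mouse 2 or 4, and 0 to 1 higher without the lavage library of mouse 2 or 4 or the BMDM library of mouse 1 or 2. Of 46 oxidative phosphorylation genes 11 were called lower and 0 higher (median -0.32), with 7 lower without the lavage library of mouse 4, and 6 lower and 1 higher without the BMDM library of mouse 4. Pdk1, which holds pyruvate back from the mitochondria, was at 13.2, 14.8 and 22.9 against 47.6, 41.7 and 48.6 CPM (-1.42 ± 0.30). Cholesterol synthesis had 6 of 23 called lower and 1 higher (median -0.30), but 2 lower and 3 higher without the lavage library of mouse 1, 2 lower and 2 higher without the BMDM library of mouse 1, 2 lower without that of mouse 2, and 3 lower without the lavage library of mouse 2 or 4. Fatty acid and lipid storage genes were 7 higher and 8 lower of 27 (median -0.22). Scd1, stearoyl-CoA desaturase 1, was at 79.1, 137 and 127 against 2.65, 1.96 and 5.27 CPM (5.09 ± 0.54, adjusted p = 4.8e-06), and Acaca, which commits carbon to fatty acids, at 58, 65 and 44.7 against 5.29, 7.82 and 3.51 CPM (3.33 ± 0.36). Plin2, the lipid droplet coat, was lower at 128, 88.9 and 88.3 against 361, 346 and 735 CPM (-2.24 ± 0.30), and Lpl, lipoprotein lipase, at 813, 1417 and 1369 against 2862, 2508 and 6858 CPM (-1.76 ± 0.33). The groups did not overlap in any of these 4 genes.

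Few cell cycle genes were called: 5 of 41 were called lower and 0 higher (median -0.49), 1 was called lower without the lavage library of mouse 1, 3 without that of mouse 2 or 4, and without the BMDM library of mouse 4 2 were called higher and 0 lower. Mki67, the proliferation antigen, was at 30.3, 42 and 47.1 against 19.4, 22.8 and 35.7 CPM and was not called (0.62 ± 0.30, adjusted p = 0.115). Ribosomal protein genes were higher for 27 of 40 and lower for 0 (median 0.84), and the list summed to 18055, 17248 and 15066 CPM in lavage cells and 8199, 8823 and 9648 CPM in BMDM. Mitochondrially encoded messenger RNAs were higher for 5 of 8 (median 0.84), but for 1 to 3 without the lavage library of mouse 2 or 4 or the BMDM library of mouse 2 or 4. The call of mt-Nd4, a subunit of complex I, was lost without each of those 4 libraries (adjusted p = 0.106 to 0.138). Mouse 1 was again lowest among lavage cells there, with sums of 24406, 43716 and 49344 CPM against 23391, 18466 and 19625 CPM.

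**Figure D4:**
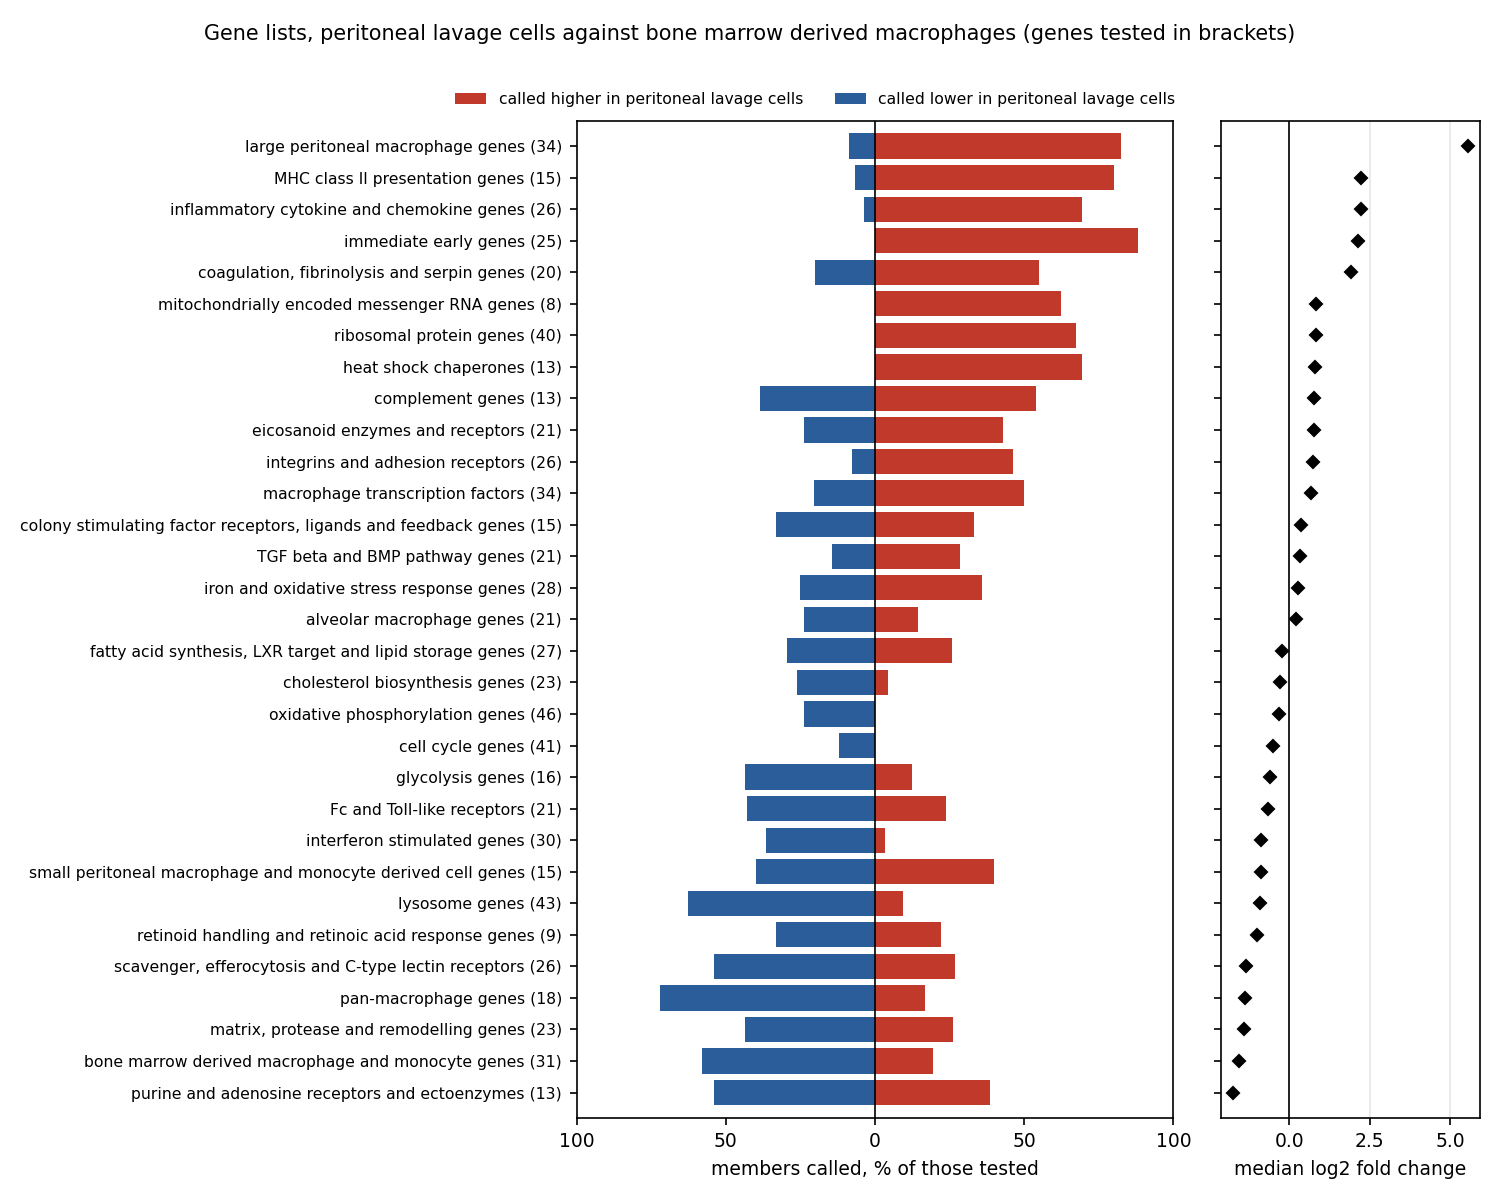
For 31 gene lists, the share of tested members called higher (red, right) and lower (blue, left) in lavage cells, and the median log2 fold change of the tested members, with the number tested in brackets. Large peritoneal macrophage genes (median 5.55) are at the top, and pan-macrophage, matrix, marrow-derived and purine lists are at the bottom.

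Each gene was also set beside the lung pair, BALF minus mexAM, to ask whether lavage cells differ from cultured cells alike at another site. That pair came from the same mice and the same fit but with no library in common. BMDM were grown from bone marrow and not from peritoneal cells, so origin and culture cannot be told apart in the peritoneal pair. In the lung pair 3007 genes (30.0%) were called, 1485 higher (14.8%) and 1522 lower (15.2%) in lavage cells. Of the 1806 genes higher in peritoneal lavage cells, 509 were also higher in lung lavage cells, which is 28.2% of the first set and 34.3% of the second. Of the 1846 lower genes, 476 were lower at both sites, or 25.8% and 31.3%. In the opposite direction in the lung pair were 155 of the higher genes (8.58%) and 211 of the lower genes (11.4%). A test of the difference between the 2 log2 fold changes was past the threshold for 2098 genes (21.0%), 934 of them (9.33% of tested genes, 44.5% of the calls) higher and 1164 (11.6%) lower in the peritoneal pair. Scaled by library totals alone, 55.9% of such calls were higher, and the median difference of all genes moved from 0.01 to 0.17 on the log2 scale. Of the large peritoneal macrophage genes 28 were higher and 3 lower in the peritoneal pair, and 7 were higher and 2 lower in the lung pair. Fn1 and H2-Aa were higher at both sites.

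Of 28 tested iron and oxidative stress genes 10 were higher and 7 lower in the peritoneal pair and 15 higher and 3 lower in the lung pair, with 8 higher in both, and the difference between the pairs was called for 14. Hmox1 had a log2 fold change of 2.62 ± 0.34 in the peritoneal pair and 5.28 ± 0.39 in the lung pair, and the difference was called (adjusted p = 0.000573). Slc7a11 was at 5.62 ± 0.31 and 4.39 ± 0.29, and Txnrd1 at 2.33 ± 0.30 and 2.90 ± 0.31, where the difference was not called (adjusted p = 0.366). Heat shock chaperones were higher for 9 of 13 in each pair, 8 of them the same genes, and the difference was called for 3, each lower in the peritoneal pair. Immediate early genes were higher for 22 and lower for 0 against 6 and 4 in the lung pair, and the difference was called higher for 12 of 25 (9.33% of all genes) and lower for 0. Lysosomal genes were higher for 4 and lower for 27 against 8 and 8, with the difference called higher for 1 and lower for 22 of 43 (11.6% of all genes). Cell cycle genes were higher for 0 and lower for 5 against 1 and 21, with the difference called higher for 4 and lower for 1 of 41. Whether any list differs between the sites was not tested as a list.

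**Figure D5:**
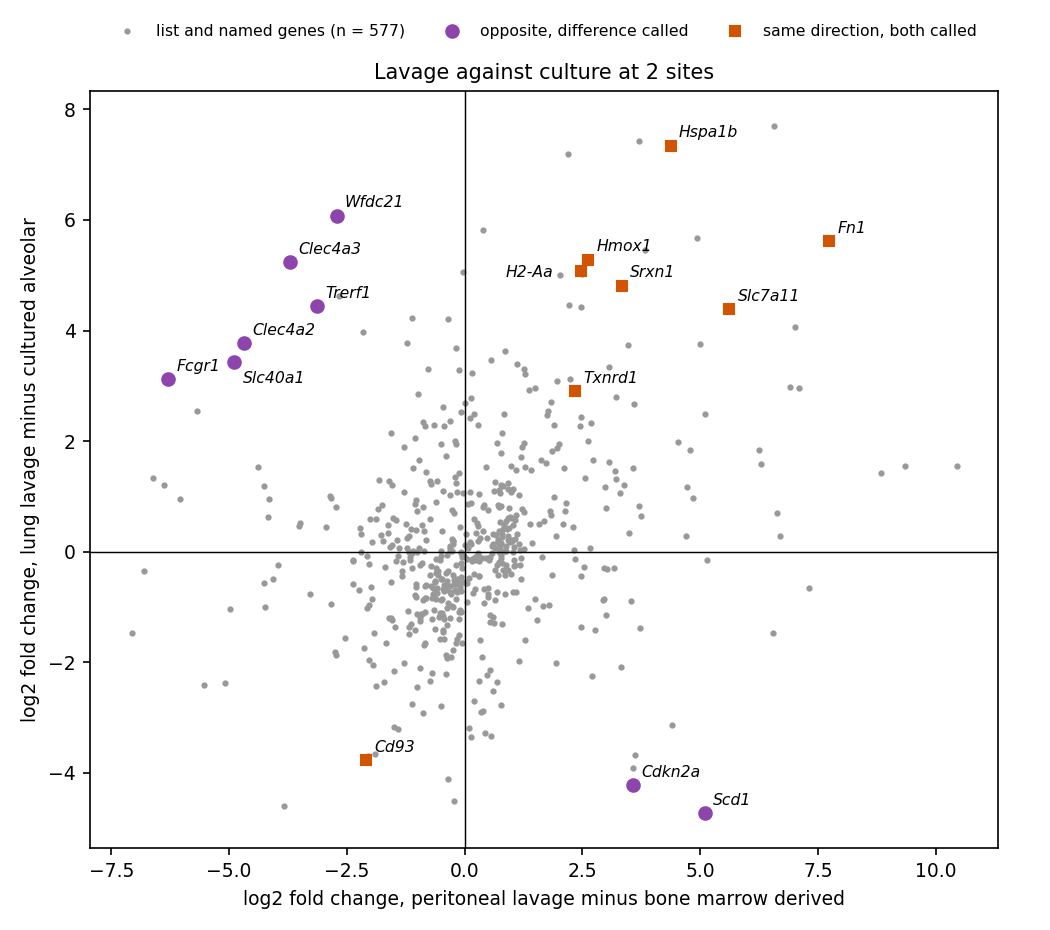
Log2 fold change of lavage cells minus cultured cells in the peritoneal pair (x axis) and the lung pair (y axis). Grey points are the 577 list and named genes with more than 3 counts in each of the 4 groups, not all tested genes. Purple circles are 8 genes that were called in opposite directions, and orange squares are 8 called alike. Scd1 and Cdkn2a are higher in peritoneal and lower in lung lavage cells, and the other 6 purple genes are the reverse.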

How the data were processed

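The authors deposited 1 file of raw counts per library, tags per Ensembl gene, with 5 lines naming no gene that were left out (20.8 to 29.9% of tags with no feature). Per the labels' protocols, RNA from RNeasy Micro columns (150 ng) went into QuantSeq 3' forward libraries with molecular identifiers, 15 amplification cycles and sequencing on a HiSeq4000 (65 bp, single end). The build was GRCm38 (mm10), per the submitters' processing notes. Aligner, counter and any collapse of tags by identifier: not given in the sources used here. Counting error alone is covered by intervals and floors.

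Counts of 12 libraries (PLF, BMDM, BALF and mexAM of mice 1, 2 and 4) were filtered with filterByExpr, scaled by the trimmed mean of M values and fitted with edgeR 4.0.16 (robust quasi-likelihood, R 4.3.3), with 8 residual degrees of freedom and Benjamini-Hochberg adjustment over 10011 genes. Symbols and positions came from GENCODE M21 and promoters from RefSeq. The fit was run on simulated counts with the same spread for every gene and library, so a library that stands apart was not covered. Mouse numbers pair the libraries by their labels, as the same numbered animals, and residuals of same-numbered libraries correlated at -0.103, -0.0466 and -0.0298.

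Genes to name were, per direction, the 12 called genes of largest change with at least 50 CPM and groups that did not overlap. Added to these were up to 4 called members per list and direction with at least 10 CPM, and a set of markers. The lack of overlap in the first set was thus fixed by the rule. In list members named for being called, a lack of overlap is not separate support. The share of all tested genes without overlap is not given here. C1qa, C1qc, Chil3, Cr2, Ednrb, F10, F3, Fos, Fzd1, Hgf, Il1a, Itga6, Laptm5, Lyz2, Saa3, Spi1, members named for a promoter match or for lack of tags, and genes of the 2-site comparison were chosen after their values were seen. Some genes within the rule are not reported here. Members and lists were chosen with earlier results of these data known. DESeq2 1.42.0 served as an alternative.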

Additional observations from a re-analysis of the deposited data

Results flagged for a closer look

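Among genes called in opposite directions in the peritoneal and lung pairs, 315 had more than 3 counts in each of the 4 groups and a called difference between the 2 log2 fold changes, and 248 of these have a symbol and at least 50 CPM in 1 group. The 8 with the largest difference are given, by a rule made after seeing the data, each as peritoneal lavage minus BMDM, then lung lavage minus cultured alveolar macrophages, then their difference. Scd1, the fatty acid desaturase, was 5.09 ± 0.54 and -4.73 ± 0.45, a difference of 9.83 ± 0.70 (adjusted p = 2.76e-07). Cultured alveolar macrophages were the highest group for it, at 633, 465 and 1036 CPM. Cdkn2a, the cell cycle inhibitor locus, was 3.58 ± 0.74 and -4.23 ± 0.50, a difference of 7.81 ± 0.88, with only 0, 0 and 2.34 CPM in BMDM. Both genes were higher in peritoneal lavage cells than in BMDM and lower in lung lavage cells than in cultured alveolar macrophages.

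The other 6 genes went the reverse way. Fcgr1 was -6.29 ± 0.39 and 3.12 ± 0.51, a difference of -9.41 ± 0.66. Clec4a3 and Clec4a2, C-type lectin receptors of a family with similar members, so that tags may be shared, had differences of -8.94 ± 0.44 and -8.45 ± 0.35, with BMDM at 258, 244 and 245 CPM and lavage cells at 7.91, 9.05 and 11.8 CPM for the latter. Wfdc21 was -2.72 ± 0.46 and 6.08 ± 0.46, a difference of -8.80 ± 0.64. Slc40a1, the iron exporter, was -4.89 ± 0.49 and 3.43 ± 0.44, a difference of -8.31 ± 0.66, with lung lavage cells at 140.3, 106 and 124 CPM. Trerf1 was -3.14 ± 0.41 and 4.44 ± 0.58, a difference of -7.58 ± 0.70. All 8 kept their direction and their call in every alternative fit of the difference.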

How the results depend on the processing

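The number of genes called between lavage cells and BMDM moved from 3652 to between 3248 and 4264 over the alternatives that keep all 3 mice (other scaling, DESeq2, filters, fewer libraries in the fit, no robust step), and to between 3004 and 3627 when 1 library was left out. The count of calls of at least 2-fold was 2388 to 3285 over the first kind and 2426 to 2701 over the second. Calls on the difference between the sites numbered 1926 to 2408, and 1747 to 2383 with 1 library left out, where leaving out a lung library was an alternative added after seeing the data. With the mouse as a replicate block 3506 genes were called (3248 in the 6 libraries alone) and 1974 for the difference between sites. The block ended the calls of Mmp12 and Il1b as given and no other call named in the text, where C1qb and C1qc were not checked.

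With 1 library left out, list medians that changed sign ranged from -1.14 to 0.55 for small peritoneal macrophages, -0.78 to 0.16 for cell cycle and -0.11 to 0.58 for alveolar macrophages. The alveolar median was -0.13 over genes with means from 10 CPM and -0.11 in the 6 libraries alone, and the cholesterol median was 0.022 and 0.042 there and 0.0020 with the replicate block in the 6 libraries. With no filter on low counts the eosinophil median was -1.98, the fibroblast median 0 and the retinoid median 0.52. Uncalled genes that changed sign with 1 library left out were Fos (-1.80 to 0.14), Hgf (-0.37 to 0.34), Itga6 (-0.19 to 0.20, and -0.0042 with library totals), Lyz2 (-0.18 to 0.027) and Mcoln1 (-1.01 to 0.11). DESeq2 did not call Col1a1, Cr2 and Il5ra, each at 0 in 1 group. Fos was called lower without the lavage library of mouse 4, and Mki67 higher (0.92) without the BMDM library of mouse 4. The causes were not tested. Depth limits genes of a few tags: 0 tags in a group of 3 libraries allows up to 3.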

Other observations

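Genes of alveolar macrophages, a list the peritoneal comparison did not turn on, were called at shares near those of all genes (18.0% and 18.4%): of 21 tested 3 were higher in peritoneal lavage cells and 5 lower (median 0.21), or 3 lower without the lavage library of mouse 4 or the BMDM library of mouse 4. Marco, a scavenger receptor of alveolar macrophages, was at 154, 100.4 and 164 against 18.1, 16.3 and 19.3 CPM (2.96 ± 0.35, adjusted p = 6.9e-06), and Cd2 at 71.8, 78.2 and 77.7 against 0.441, 1.3 and 0.585 CPM (6.56 ± 0.43). Pparg, the nuclear receptor of that lineage, was at 5.93, 5.76 and 4.71 against 22.1, 20.9 and 32.8 CPM (-2.20 ± 0.69, adjusted p = 0.0238), which passed the threshold no longer when a lavage library was left out (0.0632 to 0.0863), without the BMDM library of mouse 4 (0.0798) and with no filter on low counts (0.0590). Chil3, a chitinase-like protein, was called lower at 97.5, 133 and 67.7 against 193.7, 205 and 325 CPM (-1.28 ± 0.30).

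Of 15 tested genes of colony stimulating factor signalling 5 were called higher in lavage cells and 5 lower (median 0.37). The higher members were led by feedback inhibitors of cytokine receptors: Cish was at 23.1, 65.8 and 70.0 against 4.85, 4.56 and 3.51 CPM (3.58 ± 0.46), Socs3 at 92.3, 255 and 351 against 32.2, 26.1 and 11.7 CPM (3.30 ± 0.43) and Socs2 at 40.2, 59.2 and 51.8 against 5.73, 4.56 and 8.78 CPM (2.97 ± 0.29). Among the lower members, beside Csf1r, were Dusp6 and Spred1, which restrain the ERK kinases (-1.18 ± 0.30 and -0.89 ± 0.25). The groups did not overlap for the 3 feedback inhibitors or for Spred1, while Dusp6 in the BMDM library of mouse 4, at 78.4 CPM, was close to the 77.1 CPM of the lavage library of mouse 1.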
